A study of Mus musculus with 4 samples.

Results

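Imprinted genes are transcribed mainly from the copy inherited from a single parent. A fixed list of 40 members of this class, which spans 15 chromosomal clusters or single loci, were followed in NIH/3T3 mouse fibroblasts after knockdown of the histone methyltransferase *Setd2*. The members were the rows of the deposited transcript table whose gene symbol was on the list. Of the 40 genes, 32 had at least 1 row, with 70 transcripts of 34200 in the table, which covered 21945 genes in all. *Sgce*, *Ddc*, *Cdkn1c*, *Phlda2*, *Kcnq1*, *Ascl2*, *Ndn* and *Magel2* had no row and were not analysed here. The series held 2 knockdown (KD) and 2 wild type (WT) libraries of NIH/3T3, an established line of immortalised fibroblasts with no further genotype given in the labels. KD cells received a pair of siRNAs against *Setd2* and WT cells a scrambled siRNA, so every group was transfected, at 10 nM for 48 h. Polyadenylated RNA was sequenced. By the study's methods, cells were transfected in replicate wells, but which wells the libraries came from is not given in the sources used here, so that p-values measure the spread between these libraries, which may be technical.

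Imprinting rests on DNA methylation that is laid down in the egg or the sperm at an imprinting control region and is kept on that parental copy in body cells. Within a cluster, a long noncoding RNA or an insulator linked to the control region keeps protein-coding genes silent on 1 parental copy, and many of these genes act on fetal growth, on the IGF and insulin pathway or in the brain. SETD2 places the trimethyl mark on lysine 36 of histone H3 along transcribed gene bodies, a mark that DNA methyltransferases read. Libraries here carried no allele information, so that the values below are totals over both copies and say nothing on which parental copy was transcribed.

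What the table holds sets how each value reads. It gives, for each transcript, the authors' mean over all 4 libraries on a natural log scale and its variances, with no value for a single library or group, and depth is unknown. Level below means this pooled mean turned back into normalised estimated counts, and the level of a gene is the sum over its transcripts. The variance over all libraries and the variance within groups together fix how far the KD and WT means lay apart, but not which was higher. Each difference is therefore a size on the log2 scale without direction, which is above 0 even for noise, given with its SE and a limma adjusted p over all 34200 transcripts, called under 0.05.

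*Setd2* itself, the knockdown target, had a level of 1844 in its only row and differed between KD and WT by 1.99 ± 0.08 (SE) on the log2 scale (limma adjusted p = 0.0144), a 3.98-fold difference. This checks that the groups differ at the target, although not the direction. For the direction, the study reported lower *Setd2* mRNA in KD cells by RT-qPCR. All 12 fibroblast markers on a fixed list had rows, with gene levels from 3083 to 323250, and 7 of their 28 transcripts were called (25.0%, beside 9.68% of all transcripts). Among the 24 with a level of at least 100 the share was 29.2%, beside 15.6% of all such transcripts. Of 20 markers of epithelial, endothelial, leukocyte, neuronal, pluripotent and trophoblast cells, 8 had no row and the other 12 had gene levels from 3.03 to 343, the highest for *Cd68*. A single transcript of these was called, a row of *Nanog* with a level of only 1.99 (limma adjusted p = 0.0422). At that level the size and the adjusted p depend on the constant added before the log. No size is given for this row, and its call was not read as a difference. The main *Nanog* row, at 56.3, had a size of 0.06 ± 0.23 (adjusted p = 0.896). Among the defining markers of other cells, *Epcam*, *Rbfox3*, *Pou5f1* and *Sox2* had no row, while *Ptprc* and *Pecam1* had summed levels of 30.3 and 29.4. Of the fibroblast markers, *Col1a1*, *Col1a2*, *Col3a1*, *Col5a2*, *Fn1* and *Pdgfra* had a called transcript, and the part of this in the results below was not tested. Their called transcripts had adjusted p from 0.116 to 0.177 when limma variances were moderated without a trend on the mean. With no moderation these were 0.157 to 0.255, so that none was called in either setting.

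Junction sequences of the most abundant members come first, since kallisto assigns reads to isoforms by short stretches that some isoforms have and others lack. *Dlk1*, a Notch family ligand shed from preadipocytes and fetal cells, lies at chr12:109452823-109463336 on the plus strand (GRCm38). Its 5 short isoforms skip part of the last coding exon, which shortens the protein next to the membrane. Each line gives the 30 bases across the skip from GENCODE M21 transcripts, 5′ to 3′, with the 15 bases after it in capitals.
Dlk1-202: acctgcagccgcccgGGACAGGCCATCTGC
Dlk1-203: ctccagcacacccagGGACAGGCCATCTGC
Dlk1-204: acctgcagccgcccgGCCATCTGCTTCACC
Dlk1-206: ctccagcacacccagCCCGAGCAACACATC
Dlk1-208: ctccagcacacccagGCCATCTGCTTCACC

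These 5 junctions combine 2 upstream and 3 downstream ends. Dlk1-203, Dlk1-206 and Dlk1-208 leave the exon after chr12:109459892, and Dlk1-202 and Dlk1-204 after chr12:109459832. The skipped stretch measures 279 bases in Dlk1-202, 219 in Dlk1-203, 285 in Dlk1-204, 153 in Dlk1-206 and 225 in Dlk1-208. The encoded proteins run from 290 to 334 residues, against 385 in the full-length Dlk1-201 and Dlk1-205.

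*Gnas* encodes the stimulatory G protein alpha subunit, which links hormone receptors to adenylyl cyclase, and lies at chr2:174284320-174346744 on the plus strand. Its long and short forms differ by a small coding exon at chr2:174336747-174336791, and Gnas-206 and Gnas-207 skip it with acceptor ends 3 bases apart. The lines below give the junction into the exon in Gnas-208 and the junctions across it in the short forms, with the downstream exon in capitals. The junctions of the short forms each occur in 1 of the 6 isoforms in the table, whereas that of Gnas-208 occurs in 4, and 0% of the 31-base words of Gnas-208 occur in that isoform alone.
Gnas-208: tgggtttaacggagaGGGCGGCGAAGAGGA
Gnas-206: tgggtttaacggagaTGAGAAGGCCACTAA
Gnas-207: tgggtttaacggagaTAGTGAGAAGGCCAC

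Levels of the 32 genes ran from 0.413 to 20608 normalised estimated counts per kilobase (kb) of transcript. By counts alone, 6 genes had a level of at least 10000 normalised estimated counts, 7 lay between 1000 and 10000, 7 between 100 and 1000, and 12 under 100. *Dlk1* stood highest, at 20608 counts per kb, followed by *Gnas* at 16863, *Cd81* at 7059, *Grb10* at 6106, *Impact* at 3157 and *Igf2r* at 1724. *Dlk1* ranked at the 98.9th percentile and *Gnas* at the 98.7th of 21607 genes ranked per kb. The median percentile of the 32 genes was 46.4, so that the members with a row sat near the middle of the genes in the table. The 8 members without a row were not ranked. By transcript, the median level was 102 for members and 155 for all transcripts. The lowest was *Kcnk9*, a potassium channel gene, at 0.413 counts per kb.

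**Figure D1:**
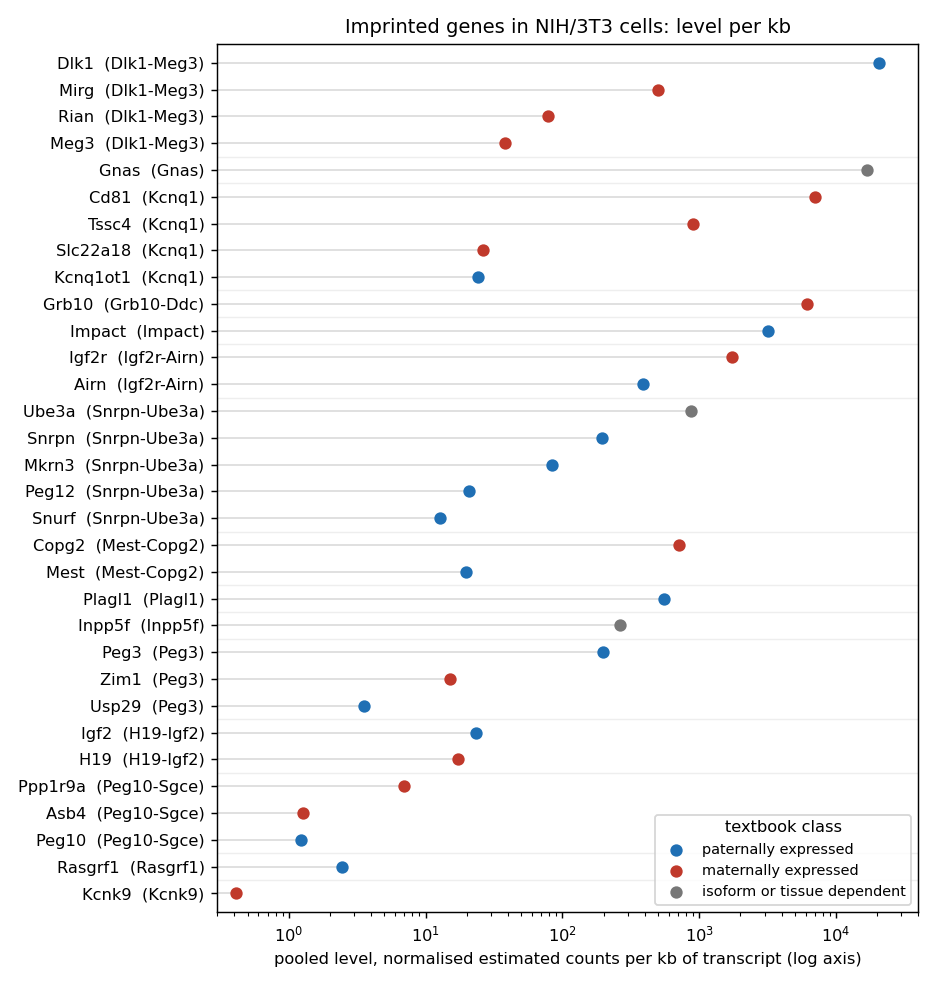
Pooled level of each of the 32 imprinted genes with a row, in normalised estimated counts per kb of transcript on a log axis. Genes are grouped by cluster and coloured by the parental class listed for the gene. Each point is the authors' mean over 4 libraries summed over isoforms, with no error bar because no single-library values were used; *Dlk1*, at 20608, and *Gnas*, at 16863, stand at the right end, and genes of both classes lie across the range.

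Between textbook classes the levels overlapped. Of 19 genes listed as paternally expressed, 15 had a row and 8 had a level of at least 100, with a median of 24.1 counts per kb. Of 18 genes listed as maternally expressed, 14 had a row and 9 had a level of at least 100, with a median of 58.1 counts per kb. *Gnas*, *Ube3a* and *Inpp5f*, listed with parental expression that depends on isoform or tissue, are counted in neither class. The classes are labels of the fixed list, and whether any of them holds in these cells was not tested.

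Between KD and WT, 5 of the 70 transcripts were called, from 5 genes, which is 7.14% of them against 9.68% of all 34200 transcripts. Most of these calls fell on well-measured transcripts. Among the 35 transcripts with a level of at least 100, 4 were called (11.4%), beside 15.6% of the 18808 such transcripts in the table. Among the 35 with lower levels 1 was called, beside 2.4% of the 15392 others. At an unadjusted p under 0.05 the members counted 14 (20.0%), against 28.2% of all transcripts. The share of members called thus lay near the background, and the median size was 0.29 for members with a level of at least 100 against 0.28 for all such transcripts. The calls rest on the trend of the variance on the mean. When variances were moderated without it, 0 of the 70 transcripts were called (10 at an unadjusted p under 0.05, lowest adjusted p = 0.101), and with no moderation 0 were called (8 at an unadjusted p under 0.05, lowest adjusted p = 0.125), beside 127 and 10 of all transcripts.

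**Figure D2:**
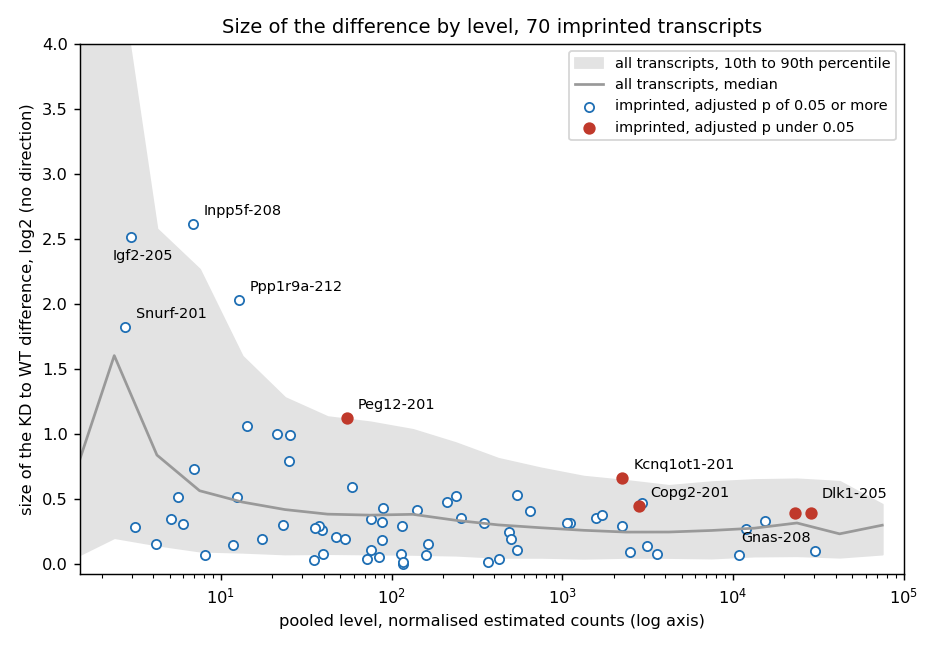
Size of the KD to WT difference on the log2 scale, without direction, against the pooled level in normalised estimated counts (log axis) for the 70 imprinted transcripts. Points are transcripts, filled where the adjusted p was under 0.05, and the grey band runs from the 10th to the 90th percentile of all transcripts at that level; *Kcnq1ot1* and *Peg12* lie near the upper edge of the band, while *Copg2*, *Dlk1* and *Gnas* lie inside it.

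*Kcnq1ot1*, the antisense long noncoding RNA that silences the *Kcnq1* cluster on the paternal copy, showed the largest called size among members with a level of at least 100. Its single unspliced row, 93092 bases long at chr7:143203458-143296549 on the minus strand, had a level of 2248. KD and WT differed by 0.66 ± 0.09 (SE) on the log2 scale, a 1.58-fold difference with a 95% interval from 1.35 to 1.84 (limma adjusted p = 0.0262). The SD between libraries of the same group was 0.07 on the same scale, so that the difference exceeded the spread between replicates. Because of its length the level was only 24.1 counts per kb, the 34.6th percentile.

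*Dlk1* was called for its main isoform. Dlk1-205 had a level of 28661, which was 85.5% of the gene's summed level, and differed by 0.39 ± 0.07 (SE; limma adjusted p = 0.0414), or 1.31-fold with an interval from 1.16 to 1.49. Libraries of the same group differed by an SD of 0.06. The 5 short isoforms, whose junctions are printed above, summed to 4807, or 14.3% of the gene. None of them was called by limma, and 1 of them, Dlk1-208, had an unadjusted p under 0.05 (0.0206, adjusted p = 0.106) with a level of 650 and a size of 0.41 ± 0.12.

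*Gnas* was likewise called for its main isoform. Gnas-208, the long form of 394 residues, had a level of 23149, or 80.3% of the gene, and differed by 0.39 ± 0.06 (SE; limma adjusted p = 0.0364), 1.31-fold with an interval from 1.17 to 1.48. Its SD within groups was 0.05. The short forms Gnas-206 and Gnas-207 had levels of 3135 and 1572 and sizes of 0.13 ± 0.17 (adjusted p = 0.654) and 0.35 ± 0.16 (adjusted p = 0.235). Words of 31 bases antisense to another annotated gene made up 78.3% of Gnas-208, 79.2% of Gnas-206 and 75.1% of Gnas-207. Whether the read counting used strand is not given in the sources used here, so reads of that gene and of *Gnas* may not be told apart.

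*Copg2*, which encodes a coatomer subunit of vesicles that travel from the Golgi to the endoplasmic reticulum, had a level of 2826 in its only row and differed by 0.44 ± 0.08 (SE; limma adjusted p = 0.0408), 1.36-fold with an interval from 1.18 to 1.57. It shares an end with *Mest*, transcribed from the opposite strand, and 22.4% of its 31-base words are antisense to *Mest*. *Mest*, a hydrolase family gene and a classic paternally expressed marker of mesoderm, had a single row, Mest-210. It had a level of 47.2 and a size of 0.20 ± 0.49 (adjusted p = 0.83). Mest-210 starts at chr6:30733506, and no row started in the other annotated promoter of *Mest*, at chr6:30737800-30738099. Of the 31-base words of Mest-210, 37.4% are antisense to *Copg2*. Per kb, *Copg2* stood 36.1-fold above this *Mest* row.

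*Peg12*, a single-exon gene of the FRAT family, which binds GSK3 in Wnt signalling, was the only low transcript called. Its level was 55.0 and its size 1.12 ± 0.21 (SE; limma adjusted p = 0.0463), 2.18-fold with an interval from 1.47 to 3.22. The SD between libraries of a group was 0.06, under the SD of 0.19 that came from read assignment alone. Such a value, smaller than the technical part of it, was met in 22 of the 70 transcripts, 19 of them with levels under 100, and in 42.9% of all transcripts. Without this row, each call concerned a transcript with a level of at least 2248.

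**Figure D3:**
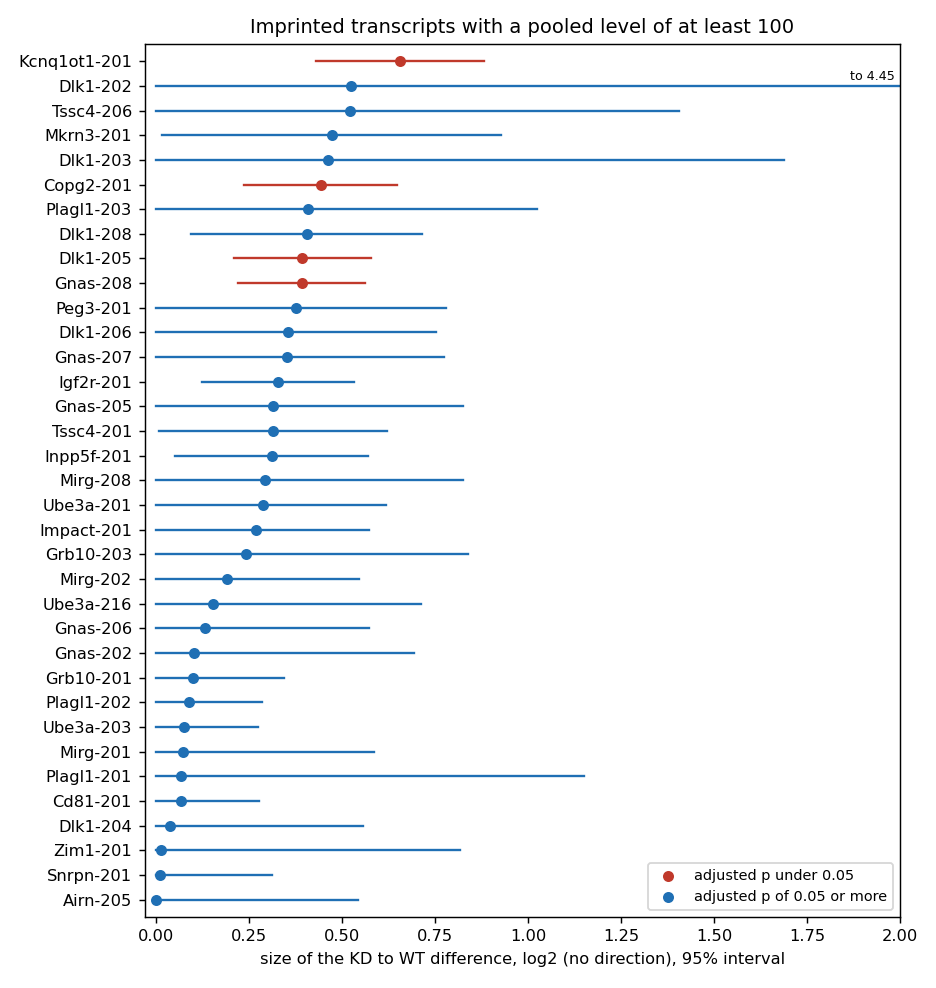
Size of the KD to WT difference on the log2 scale, without direction, with its 95% interval from limma for the 35 imprinted transcripts with a pooled level of at least 100. Points are estimates and lines intervals, cut at 0 and, for Dlk1-202, drawn to 2 of 4.45; the called transcripts *Kcnq1ot1*, *Copg2*, Dlk1-205 and Gnas-208 have intervals whose lower ends lie between 0.21 and 0.43.

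The IGF axis joins several members. *Igf2* encodes the fetal growth factor IGF2, *H19* is the noncoding RNA that shares its enhancers, *Igf2r* is the receptor that carries IGF2 to lysosomes, and *Airn* is the antisense RNA that silences *Igf2r* on the paternal copy. Transcripts of the ligand gene were low. Igf2-201 had a level of 84.8 and a size of 0.05 ± 0.29 (adjusted p = 0.935), and Igf2-205 a level of 2.96 and a size of 2.52 ± 1.23 (adjusted p = 0.266). Of the 31-base words of Igf2-201, 97.0% also lie in an overlapping annotated gene, so that this level may be shared with it.

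*H19* had a level of 39.2 in the row H19-202 and a size of 0.26 ± 0.37 (adjusted p = 0.691). The receptor gene *Igf2r* had a level of 15319 and differed by 0.33 ± 0.08 (SE), with a limma adjusted p of 0.0699 that missed the threshold. When only transcripts with a level of at least 100 were tested, its adjusted p was 0.0388. Without a trend it was 0.231, and with no moderation 0.244. Per kb the *Igf2r* transcript stood 73.3-fold above the *Igf2* transcripts in these pooled libraries. The *Igf2* level may be shared with the overlapping gene, as given above, and protein was not measured.

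*Airn* had 4 rows with levels of 117 for Airn-205, 87.7 for Airn-203, 75.3 for Airn-204 and 14.3 for Airn-202. Their sizes were 0.00 ± 0.21, 0.18 ± 0.24, 0.10 ± 0.23 and 1.06 ± 0.40, with adjusted p of 1.00, 0.674, 0.818 and 0.176. *Igf2r* per kb was 4.46-fold above the sum of these spliced antisense forms. *Grb10*, the adaptor that restrains the insulin and IGF1 receptors, was carried almost wholly by Grb10-201, with a level of 30362 (98.4% of the gene) and a size of 0.10 ± 0.09 (adjusted p = 0.536). The 95% interval of that size reached 0.34, so a difference above 1.27-fold lay outside it. Grb10-203, at 489, and Grb10-202, at 6.97, had sizes of 0.24 ± 0.23 (adjusted p = 0.541) and 0.73 ± 0.63 (adjusted p = 0.502).

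*Plagl1*, a zinc finger transcription factor that arrests the cell cycle and sits in a network with *Igf2* and *H19*, had a level of 2491 in Plagl1-202 with the smallest SD within groups of any member above 100, at 0.04, and a size of 0.09 ± 0.08 (adjusted p = 0.488). Plagl1-201, at 160, and Plagl1-203, at 140, had sizes of 0.07 ± 0.41 (adjusted p = 0.936) and 0.41 ± 0.23 (adjusted p = 0.327).

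Partners of the pathway on a fixed list gave 12 transcripts of 10 genes, of which 2 were called (16.7%, beside 9.68% of all transcripts). Among the 11 with a level of at least 100 the share was 18.2%, beside 15.6% of all such transcripts, so that the list lay near the background. Neither call was made without the trend or with no moderation. These were a transcript of *Igf2bp2* with a level of 1043 and a size of 0.65 ± 0.08 (limma adjusted p = 0.0253) and the single transcript of *Igf2bp3* with a level of 3684 and a size of 0.75 ± 0.07 (adjusted p = 0.0190), both genes for RNA-binding proteins of the IGF2 mRNA. The more abundant transcript of *Igf2bp2*, at 6998, had a size of 0.09 ± 0.07 (adjusted p = 0.413). The receptor genes *Igf1r*, at 5900, and *Insr*, at 1832, had sizes of 0.06 ± 0.08 (adjusted p = 0.637) and 0.35 ± 0.09 (adjusted p = 0.0827). *Igfbp2* and *Igfbp5* had no row.

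In the *Dlk1* to *Meg3* cluster on chromosome 12, the coding gene and its noncoding neighbours stood far apart. *Meg3*, *Rian* and *Mirg* are maternally expressed long noncoding RNAs that host snoRNAs and microRNAs, and together they had 13 rows with levels from 3.15 to 498, 3 of them at least 100. *Dlk1* per kb was 41.3-fold above *Mirg*, the highest of them, at 499 counts per kb. No noncoding row of the cluster was called by limma, and 2 had an unadjusted p under 0.05. Those were Meg3-201, with a level of 25.5 and a size of 0.99 ± 0.30 (adjusted p = 0.114), and Rian-213, with a level of 21.4 and a size of 1.00 ± 0.34 (adjusted p = 0.14).

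The other *Meg3* rows were Meg3-209, at 76.2 with a size of 0.35 ± 0.23 (adjusted p = 0.391), and Meg3-207, at 37.5 with a size of 0.29 ± 0.26 (adjusted p = 0.512). Of *Mirg*, the highest row was Mirg-202, at 498 with a size of 0.19 ± 0.14 (adjusted p = 0.416), and the lowest Mirg-212, at 23.1 with a size of 0.30 ± 0.30 (adjusted p = 0.576). Of *Rian*, the highest was Rian-209, at 87.7 with a size of 0.32 ± 0.24 (adjusted p = 0.449), and the lowest Rian-208, at 3.15 with a size of 0.28 ± 1.15 (adjusted p = 0.904). Share of words found in other annotated genes reached 41.9% in Meg3-207.

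At the *Kcnq1* cluster on chromosome 7, the RNA described above lies among the genes it silences. *Cdkn1c*, *Phlda2*, *Kcnq1* and *Ascl2* had no row, while *Cd81* and *Tssc4*, at the edge of the cluster, were abundant. *Cd81*, a tetraspanin of the cell surface, had a level of 10821 and a size of 0.07 ± 0.08 (adjusted p = 0.637), with an interval that ended at 0.28. *Tssc4*, an assembly factor of the spliceosome, had Tssc4-201 at 1061 with a size of 0.31 ± 0.12 (adjusted p = 0.17), Tssc4-206 at 239 with 0.52 ± 0.34 (adjusted p = 0.381) and Tssc4-202 at 25.2 with 0.79 ± 0.33 (adjusted p = 0.206). *Slc22a18*, a transporter gene, had a level of 39.8 and a size of 0.07 ± 0.24 (adjusted p = 0.875), and its libraries differed within groups by an SD of only 0.01, against 0.24 from read assignment.

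In the *Peg3* cluster, *Peg3*, a zinc finger gene tied to maternal behaviour and fetal growth, had a level of 1709 and a size of 0.38 ± 0.15 (adjusted p = 0.196). *Zim1*, its maternally expressed zinc finger neighbour, had a level of 117 and a size of 0.02 ± 0.31 (adjusted p = 0.982), and per kb *Peg3* stood 13.0-fold above it. *Usp29*, a ubiquitin protease gene that starts beside *Peg3* in the other direction, had Usp29-204 at 17.5 with a size of 0.19 ± 0.39 (adjusted p = 0.794) and Usp29-203 at 5.57 with 0.52 ± 0.57 (adjusted p = 0.609).

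The *Snrpn* to *Ube3a* domain, the mouse counterpart of the Prader-Willi and Angelman region, held both ubiquitous and low transcripts. *Ube3a*, a ubiquitin ligase gene imprinted mainly in neurons, had Ube3a-203 at 3581 with a size of 0.08 ± 0.08 (adjusted p = 0.564), Ube3a-201 at 2251 with 0.29 ± 0.13 (adjusted p = 0.22) and Ube3a-216 at 163 with 0.15 ± 0.21 (adjusted p = 0.689). *Snrpn*, for a splicing protein of the Sm family, had Snrpn-201 at 369 with a size of 0.01 ± 0.11 (adjusted p = 0.963), for which the interval ended at 0.31, and Snrpn-202 at 6.01 with 0.31 ± 0.53 (adjusted p = 0.756). Of their words, 32.0% and 28.2% also lie in other annotated genes, *Snurf* among them, so that these levels may be shared.

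*Snurf*, whose reading frame lies on the same message as *Snrpn*, had a level of 2.75 and a size of 1.82 ± 1.38 (adjusted p = 0.45), and all of its words also lie in other genes, *Snrpn* among them. *Mkrn3*, a makorin ubiquitin ligase gene known for its part in the timing of puberty, had a level of 212 and a size of 0.47 ± 0.17 (adjusted p = 0.166). *Peg12*, described above, lies next to it, at chr7:62461871-62464510.

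The remaining loci were *Impact*, *Inpp5f*, *Rasgrf1*, *Kcnk9* and the cluster around *Peg10*. *Impact*, an inhibitor of the kinase GCN2 in translation control, had a level of 11879 and a size of 0.27 ± 0.11 (adjusted p = 0.212). *Inpp5f*, an inositol phosphatase gene whose second variant alone is imprinted in brain, had Inpp5f-201 at 1111 with a size of 0.31 ± 0.10 (adjusted p = 0.125), Inpp5f-203 at 88.9 with 0.43 ± 0.37 (adjusted p = 0.509) and Inpp5f-208 at 6.88 with 2.61 ± 2.23 (adjusted p = 0.5).

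*Peg10*, a gene derived from a retrotransposon and needed in the placenta, had a level of 8.10 and a size of 0.06 ± 0.47 (adjusted p = 0.947). *Asb4*, a ubiquitin ligase subunit gene, had a level of 4.16 and a size of 0.15 ± 0.79 (adjusted p = 0.926). *Ppp1r9a*, for the actin-binding neurabin, had Ppp1r9a-201 at 35.4 with a size of 0.28 ± 0.28 (adjusted p = 0.569) and Ppp1r9a-212 at 12.7 with 2.03 ± 0.57 (adjusted p = 0.0976). *Rasgrf1*, a Ras exchange factor gene, had a level of 11.7 and a size of 0.15 ± 0.46 (adjusted p = 0.871), and *Kcnk9* a level of 5.09 and a size of 0.34 ± 0.61 (adjusted p = 0.76).

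Isoforms were compared within the 15 genes with several rows, which held 53 transcripts. In 4 of them, *Snrpn*, *Grb10*, *Igf2* and *Inpp5f*, a single isoform carried at least 90% of the summed level, and in 3 of them it also did so per kb, the exception being *Inpp5f* at 88.6%. The leading isoform was the same by counts and per kb in 12 of the 15 genes. In *Ube3a*, Ube3a-203 led by counts with 59.7% and Ube3a-201 led per kb with 53.1%. In *Airn* and *Meg3* the lead also passed to another row, Airn-203 with 46.7% and Meg3-207 with 52.3% per kb.

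**Figure D4:**
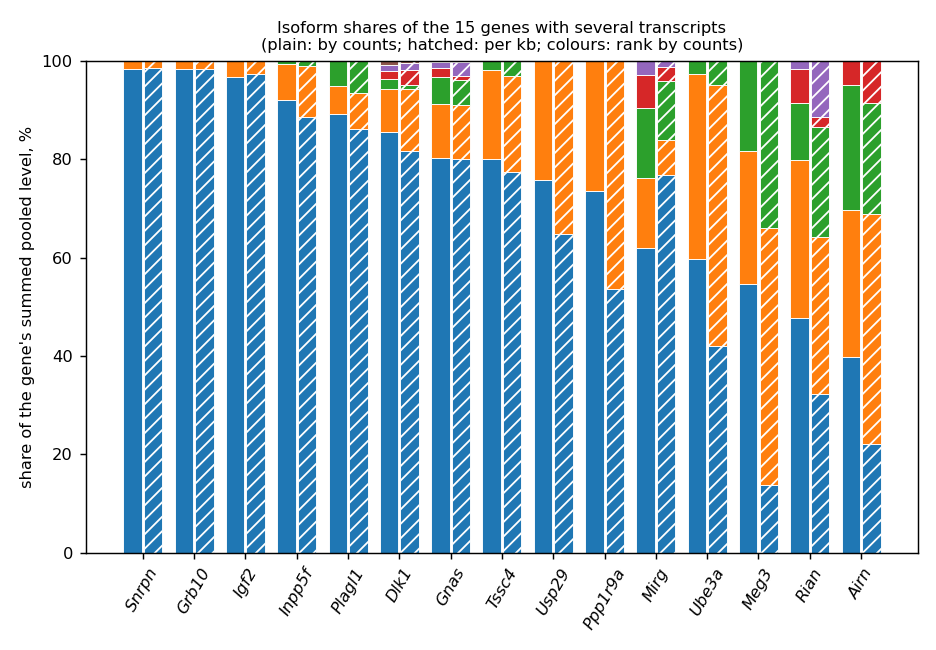
Share of each isoform in the summed pooled level of its gene, in percent, for the 15 imprinted genes with several rows, by counts (plain bars) and per kb (hatched bars). Colours rank the isoforms of a gene by counts, and bars run from *Snrpn*, where the main isoform held 98.4%, to *Airn*, where it held 39.8%; the leading isoform changes per kb in *Ube3a*, *Meg3* and *Airn*.

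For *Gnas*, the start site also divides the isoforms. Of the 6 rows, 4 start at the promoter of the alpha subunit and held 97.9% of the summed level. Gnas-202 starts upstream, at chr2:174327768, with a level of 544 and a size of 0.10 ± 0.23 (adjusted p = 0.81). Gnas-211 begins at the start of the gene, chr2:174284320, where the maternally expressed Nesp transcript begins, and had a level of 71.5 and a size of 0.04 ± 0.32 (adjusted p = 0.956). Words antisense to other annotated genes made up 34.2% of Gnas-202 and 87.7% of Gnas-211. The truncated Gnas-205, of 91 residues, had a level of 348 and a size of 0.32 ± 0.19 (adjusted p = 0.358).

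Spread between libraries was uneven among the isoforms of *Dlk1*. Dlk1-202 had a level of 542 and an SD within groups of 2.28 on the log2 scale, against 0.35 from read assignment. With 2 libraries in each group, that SD means that in KD or in WT the libraries differed by at least 9.32-fold for this isoform. Its size was 0.53 ± 1.49 (adjusted p = 0.857), so that the difference between groups was far inside the spread between replicates. Dlk1-203, at 2933 the most abundant short form, had an SD within groups of 0.70, a gap of at least 1.99-fold and a size of 0.46 ± 0.47 (adjusted p = 0.568).

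The full-length Dlk1-201, at 35.1 the lowest row of the gene, had a size of 0.03 ± 0.52 (adjusted p = 0.98). Words of 31 bases that occur in that isoform alone made up 0.662% to 9.58% of the *Dlk1* rows, so the split between them rests on few positions such as the junctions printed above. A gap of at least 2-fold within a group was met in 6 of the 70 member transcripts (8.57%), beside 12.1% of all transcripts. Among these 6, Dlk1-202 alone had a level of at least 100.

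**Figure D5:**
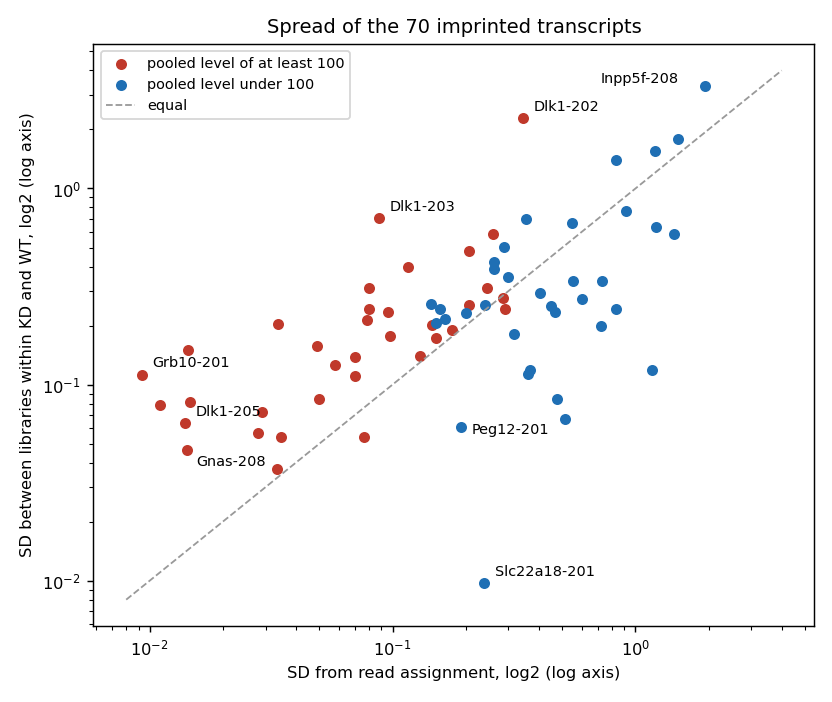
SD between libraries within KD and WT against the SD from read assignment, both on the log2 scale with log axes, for the 70 imprinted transcripts, coloured by a pooled level of at least 100 or under it. Each point is a transcript and the dashed line marks equal values; Dlk1-202, at 2.28, lies far above the line for its level, and 19 of the 22 transcripts under the line have levels under 100.

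Factors that keep or read imprints gave a fixed list of 26 genes, of which 22 had a row. Of their 58 transcripts, 12 were called (20.7%, beside 9.68% of all transcripts), from 8 genes. The 12 include a row of *Arid4b* with a level of only 3.09, described below. Among the 45 with a level of at least 100, 11 were called (24.4%, beside the 15.6% given above). *Zfp57*, a zinc finger protein that binds methylated imprinting control regions, had 4 rows and all were called, with levels of 464 to 2099 and sizes of 0.92 to 1.11. These rows are isoforms of the same gene, so that the calls are not independent. The most abundant of them differed by 1.11 ± 0.14 (SE; limma adjusted p = 0.0243).

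*Zfp445*, which binds imprinting control regions alongside *Zfp57*, had a main row at 7407 with a size of 0.08 ± 0.06 (adjusted p = 0.452), and *Trim28*, the corepressor that both recruit, had a level of 11940 and a size of 0.34 ± 0.08 (adjusted p = 0.0720). *Dnmt1*, the maintenance DNA methyltransferase, had a main row at 7541 with a size of 0.05 ± 0.09 (adjusted p = 0.776), and its partner *Uhrf1* a main row at 5324 with 0.27 ± 0.08 (adjusted p = 0.103). *Ctcf*, the insulator protein at the *H19* control region, had a level of 3766 and a size of 0.09 ± 0.07 (adjusted p = 0.465).

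Other members of that list with a called row were *Smchd1*, *Arid4b*, *Hells*, *Ezh2*, *Ehmt1*, *Ehmt2* and *Cbx3*. *Hells*, a chromatin remodeler that aids DNA methylation, had a level of 8152 and differed by 0.53 ± 0.07 (SE; limma adjusted p = 0.0279). *Smchd1*, a chromatin protein needed at several imprinted clusters, had a level of 4714 and differed by 0.41 ± 0.07 (adjusted p = 0.0354). *Cbx3*, for the heterochromatin protein HP1 gamma, had a main row at 9422 that differed by 0.59 ± 0.08 (adjusted p = 0.0254). *Arid4b*, a subunit of a histone deacetylase complex, had a main row at 2897 that differed by 0.41 ± 0.07 (adjusted p = 0.0416). Its second called row had a level of only 3.09, where the size and the adjusted p depend on the 0.5 added before the log. No size is given for it, and its call, though counted among the 12 of the list, was not read as a difference. *Ezh2*, *Ehmt1*, *Ehmt2* and *Cbx3* each had 1 called row among several. Without a trend, the 12 called rows of the list, those of *Zfp57* included, had adjusted p from 0.103 to 0.166, and with no moderation from 0.129 to 0.251, so that none was called in either setting.

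The promoters of members were searched for TGCCGC, the core of the motif that ZFP57 binds when methylated, on both strands. Windows were 250 bases before to 50 after each annotated start, from RefSeq (GRCm38.p6). The letters were found in 10 of 49 windows of the 33 members that were matched by symbol (20.4%), beside 11.6% of all 32851 windows. For members with a row the share was 23.3%, beside 16.4% of the windows of genes with a row. The motif itself holds a CpG, and the median CpG count was 13 in member windows, 7 in all windows and 17 in those of genes with a row. A match describes letters in a window and is no measured site, and imprinting control regions often lie outside such windows. Members with a match were *Copg2*, *Grb10*, *Igf2*, *Meg3*, *Mest*, *Plagl1*, *Snrpn*, *Snurf* and *Zim1*, the windows of *Snrpn* and *Snurf* sharing the same match. The matching windows of *Mest* are 2 that start 3 bases apart and hold the same matches, so that these matches, like those of *Snrpn* and *Snurf*, are counted in 2 of the 10 windows.

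Stretches from 4 of them are shown, 30 bases each on the strand of the match with the motif in capitals, because *Copg2* was called between KD and WT, *Grb10* is among the most abundant members, and *Plagl1* and *Snrpn* start inside their imprinting control regions.
Copg2, chr6:30896893-30896922, plus strand: tgctccgcccacTGCCGCacgggggcgtgg
Grb10, chr11:12037379-12037408, plus strand: cccttcccttccTGCCGCctccccgcaccc
Plagl1, chr10:13090730-13090759, minus strand: tgccgtgggcttTGCCGCgcaacacgccag
Snrpn, chr7:60005184-60005213, plus strand: tgcgcacattttTGCCGCaatgcaggggtc
Of the 5 members called between KD and WT, *Copg2* alone had a match in these windows. By gene, a match was found in 32.1% of the members with a row and in 19.1% of all genes with a row, among those with a window.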

How the data were processed

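Polyadenylated RNA of 2 KD and 2 WT libraries was sequenced after a stranded library preparation. According to the study's methods, the authors trimmed adapters with BBDuk, quantified transcripts with Kallisto and modelled the groups in Sleuth; the labels also name bcl2fastq 2.17, HISAT2 and the build GRCm38. The transcriptome index and the strand setting are not given in the sources used here. The deposited mean of each transcript is, by the authors, the natural log of estimated counts divided by a size factor of each library, plus 0.5, averaged over the 4 libraries, and the deposited variances are on the same natural log scale. The table also holds the effect sizes, standard errors, test statistics, p-values and q-values of the authors' own comparison, and a gene table holds p-values and q-values; these were not used.

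Levels were obtained by the exponential of the mean minus 0.5. The difference between KD and WT was computed from the variance over all 4 libraries and the variance within groups, which has 2 degrees of freedom and is the deposited residual variance with the read assignment variance added back. This gives its size and not its direction. Variances were moderated in limma 3.58.1 (R 4.3.3) with a trend on the mean, and p-values were adjusted by Benjamini-Hochberg over all 34200 transcripts. Of these, 33720 transcripts and all 70 member transcripts matched GENCODE M21, from which lengths, junctions and shared 31-base words were taken, in Python 3.11.15.

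The members, the lists and the tests were chosen with earlier results of these data known. Every member with a row is given with values, isoforms singly for genes with up to 4 rows and otherwise the highest, the lowest and every called row; Dlk1-202, Dlk1-203, Dlk1-208, the other Gnas rows, Meg3-201 and Rian-213 were named in addition after their values were seen. Other genes come from fixed lists. Depth per library is unknown, so that no counting interval is given. The alternatives were a filter on low levels, variances moderated without a trend, and none moderated.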

Additional observations from a re-analysis of the deposited data

How the results depend on the processing

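Calls depended on how the variances were handled. Over all transcripts, 3312 were called in limma with a trend on the mean, 4965 when only the 18808 transcripts with a level of at least 100 were tested, 127 when variances were moderated without a trend and 10 with no moderation. Of the imprinted transcripts, 5 were called, 5 with the filter, 0 without a trend and 0 with no moderation; at an unadjusted p under 0.05 the counts were 14, 10 and 8 for the trend, no trend and no moderation. The cause was not tested. With the filter, *Peg12* was not in the test and *Igf2r* passed (adjusted p = 0.0388), while *Kcnq1ot1*, *Copg2*, *Gnas* and *Dlk1* had adjusted p between 0.00907 and 0.0268. Without a trend, the 5 called transcripts and *Setd2* had adjusted p between 0.0537 and 0.183, and with no moderation between 0.103 and 0.192. In these settings *Igf2r* had 0.231 and 0.244. The sizes themselves are the same in each setting. Genes with a level of at least 100 numbered 20, and 18 when only rows of at least 100 were summed; main isoforms with at least 90% numbered 4, and 3 per kb.

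No paired analysis was possible because the table gives no value for a single library. For the same reason another pseudocount, TMM factors and the omission of each library could not be fitted. With 2 libraries in a group and no depth, differences in the 35 member transcripts with levels under 100 were measured with SEs from 0.21 to 2.23 on the log2 scale, and of these transcripts *Peg12* alone was called.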
